A study of Homo sapiens with 3 samples.

Results

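The respiratory chain is built from proteins of the nucleus and of the mitochondrial genome, and its nuclear genes were examined here for binding of SOX4. The members were the protein-coding genes on chromosomes 1 to 22 and X of the RefSeq GRCh38 table whose symbols start with NDUFA, NDUFB, NDUFC, NDUFS, NDUFV, UQCR, ATP5 or one of COX4 to COX8, together with SDHA, SDHB, SDHC, SDHD and CYC1. They numbered 97 of 19970 coding genes. By symbol, 37 encode subunits of complex I, 4 complex II, 10 complex III, 17 complex IV and 19 complex V, which here includes the inhibitor gene ATP5IF1. A further 8 are the NDUFAF assembly factors of complex I, and 2 are read-through genes. The rule itself uses symbols and no measured value, although the set was chosen with earlier results of these data known.

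Binding was read from chromatin immunoprecipitated with a SOX4 antibody. The cells were BT549, a human cell line established from a triple-negative breast tumour, at passage 5 and without a stated genotype change. All 3 libraries carry the same labels, so they form 1 group, and the letters UT in their titles are not explained. No treated sample and no control chromatin (input or IgG) was analysed here, and nothing says whether the libraries come from separate cultures. Each library is given as a list of 1 bp summits with a score, the −log10 of a p or q value that MACS2 computed. A list of summits measures no expression, so the identity of the cells could not be checked with marker genes.

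Complex I takes electrons from NADH and complex II takes them from succinate. Complexes III and IV pass them on to oxygen, and complex V, the ATP synthase, uses the proton gradient that complexes I, III and IV build. In many tissues the nuclear genes of the chain are known to be controlled by NRF1, the ETS factor GABP and YY1 at GC-rich promoters. SOX4 is a high-mobility-group factor whose family binds sequences around AACAAT or AACAAAG.

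The promoters of 5 members with a summit are printed to show their letters and, where a summit falls in the window, its place among them. ATP5PB, ATP5F1C and NDUFB6 are those with summits in at least 2 libraries near a gene end and an entry in the RefSeq promoter table (GRCh38.p14). SDHD and ATP5PF were added after their values were seen, because they hold a SOX match. Each runs 5′ to 3′ over the 250 bases before and the 50 bases from the transcription start. Capitals mark exact matches on either strand to CTCGCGAG (a palindrome), to the NRF1 letters GCGCATGC, the YY1 letters AAGATGGC, the ETS letters CCGGAAG, the SOX letters AACAAT or AACAAAG, or TATAAA.
ATP5PB, chr1:111449214-111449513, plus strand: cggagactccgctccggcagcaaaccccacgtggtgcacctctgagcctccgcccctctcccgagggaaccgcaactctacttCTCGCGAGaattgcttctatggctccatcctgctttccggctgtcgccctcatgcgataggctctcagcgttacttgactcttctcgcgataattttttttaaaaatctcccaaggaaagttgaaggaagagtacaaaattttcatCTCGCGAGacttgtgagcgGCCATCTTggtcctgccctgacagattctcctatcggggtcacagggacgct
ATP5F1C, chr10:7787927-7788226, plus strand: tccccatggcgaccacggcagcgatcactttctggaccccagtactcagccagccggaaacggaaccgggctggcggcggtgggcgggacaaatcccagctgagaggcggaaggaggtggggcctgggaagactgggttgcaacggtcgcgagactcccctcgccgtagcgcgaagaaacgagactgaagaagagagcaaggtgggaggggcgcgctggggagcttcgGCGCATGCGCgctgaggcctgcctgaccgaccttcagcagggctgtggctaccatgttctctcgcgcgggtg
NDUFB6, chr9:32573110-32573409, minus strand: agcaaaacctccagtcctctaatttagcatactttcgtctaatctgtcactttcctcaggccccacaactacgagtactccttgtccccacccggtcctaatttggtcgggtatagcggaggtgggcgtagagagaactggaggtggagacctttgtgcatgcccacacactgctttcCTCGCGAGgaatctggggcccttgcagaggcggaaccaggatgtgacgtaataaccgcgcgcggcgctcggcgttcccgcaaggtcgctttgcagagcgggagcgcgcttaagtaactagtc
SDHD, chr11:112086623-112086922, plus strand: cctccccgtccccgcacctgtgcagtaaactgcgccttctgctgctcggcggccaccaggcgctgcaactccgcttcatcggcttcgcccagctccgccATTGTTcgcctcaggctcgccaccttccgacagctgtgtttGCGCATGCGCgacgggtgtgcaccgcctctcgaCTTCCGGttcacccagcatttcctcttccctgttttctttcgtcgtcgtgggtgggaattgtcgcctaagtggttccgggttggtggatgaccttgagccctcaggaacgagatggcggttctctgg
ATP5PF, chr21:25735005-25735304, minus strand: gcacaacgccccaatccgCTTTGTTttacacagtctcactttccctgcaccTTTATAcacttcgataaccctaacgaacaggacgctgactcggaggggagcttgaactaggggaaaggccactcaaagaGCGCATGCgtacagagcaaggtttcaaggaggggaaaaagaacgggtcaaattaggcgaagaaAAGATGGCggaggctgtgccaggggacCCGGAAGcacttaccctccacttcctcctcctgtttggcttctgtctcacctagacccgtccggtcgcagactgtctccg

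In ATP5PB the replicate 1 summit falls on base 171 of the printed window and the replicate 2 summit on base 232. The second CTCGCGAG match covers bases 230 to 237, so the replicate 2 summit lies inside it. The first match covers bases 84 to 91, and the YY1 letters cover bases 249 to 256, across the transcription start. In ATP5F1C the replicate 1 summit is at base 52, and NRF1 matches on the 2 strands overlap at bases 229 to 238. NDUFB6 holds CTCGCGAG at bases 179 to 186, and its summits lie outside the window, those shared by 2 libraries at the far end of the gene. The SDHD summit of replicate 3 is at base 2, with a SOX match at bases 100 to 105 and overlapping NRF1 matches at 141 to 150. ATP5PF has SOX letters at bases 19 to 25, NRF1 letters at 131 to 138, YY1 letters at 194 to 201 and ETS letters at 221 to 227, and its summit lies outside the window. A match is a string of letters and no measured site.

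SOX4 summits were found at 15 of the 97 genes within 1 kb of either gene end in any library. That is 15.5% (exact 95% binomial interval 8.92 to 24.2%), against 15.1% of all coding genes, and the share of the respiratory chain was thus near the background. In replicate 1, 4 members had a summit (4.12%, all coding genes 3.08%), in replicate 2 also 4 (4.12%, all coding genes 2.77%) and in replicate 3 there were 13 (13.4%, all coding genes 13.4%). The mean over the libraries was 7 ± 5.2 members (SD, n = 3). At least 2 libraries placed a summit at 5 members (5.15%, interval 1.69 to 11.6%), against 3.21% of all coding genes, and all 3 libraries did so at 1 member (1.03%, against 0.841%). The lists held 1368, 1713 and 4430 summits, and 9 of the 10 members with 1 library had it in replicate 3. Without replicate 3 the count in any library was 6 (6.19%, all coding genes 4.78%). Leaving out 1 library left 3 members with both others without replicate 1, and 2 without replicate 2 or without replicate 3. With 1 group and no control, no test was made, and the intervals cover counting error only.

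**Figure D1:**
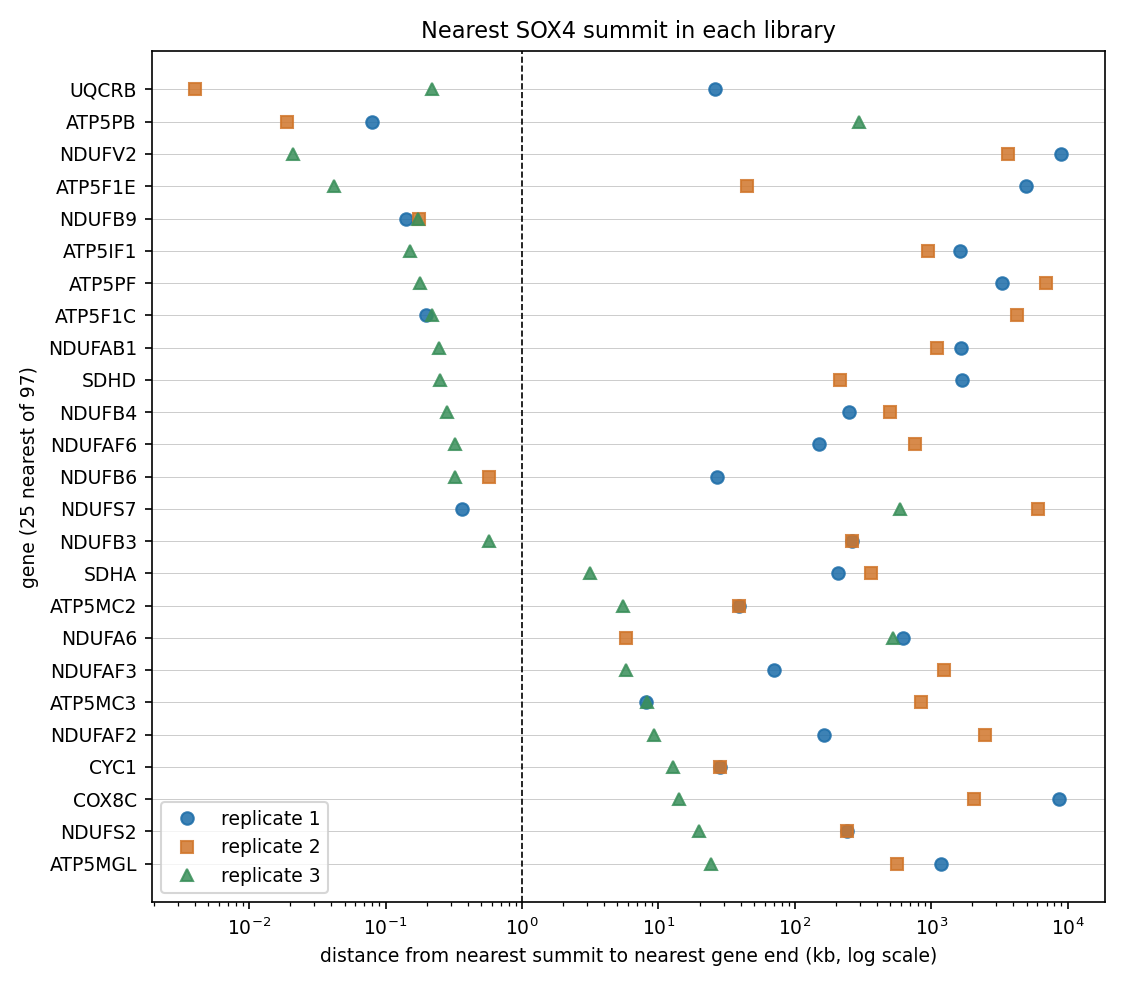
Distance in kb (log axis) from the nearest summit of each library to the nearest gene end, for the 25 of 97 respiratory chain genes with the nearest summits; symbols stand for the 3 libraries and the dashed line for 1 kb. NDUFB9 is the 1 gene with all 3 symbols left of the line, and 9 others have the triangle of replicate 3 alone left of it.

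Chromosome 8 contributed 3 of the 15 genes from 5 members, NDUFB9, UQCRB and NDUFAF6. The share over all its coding genes, counting any library, was 37.0%. In at least 2 libraries it was 16.4% (2 of the 5 members), and in all 3 it was 7% (1 of the 5 members, NDUFB9). The other 2 members there, CYC1 and COX6C, had none. Off chromosome 8, 12 of 92 members had a summit in any library (13.0%), against 14.3% of coding genes, and 3 of 92 in at least 2 libraries (3.26%), against 2.73%. In all 3 libraries it was 0 of 92, against 0.613%. The median distance to the nearest summit was 754, 1140 and 150 kb for members in replicates 1, 2 and 3, and 905, 1020 and 153 kb for all coding genes.

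**Figure D2:**
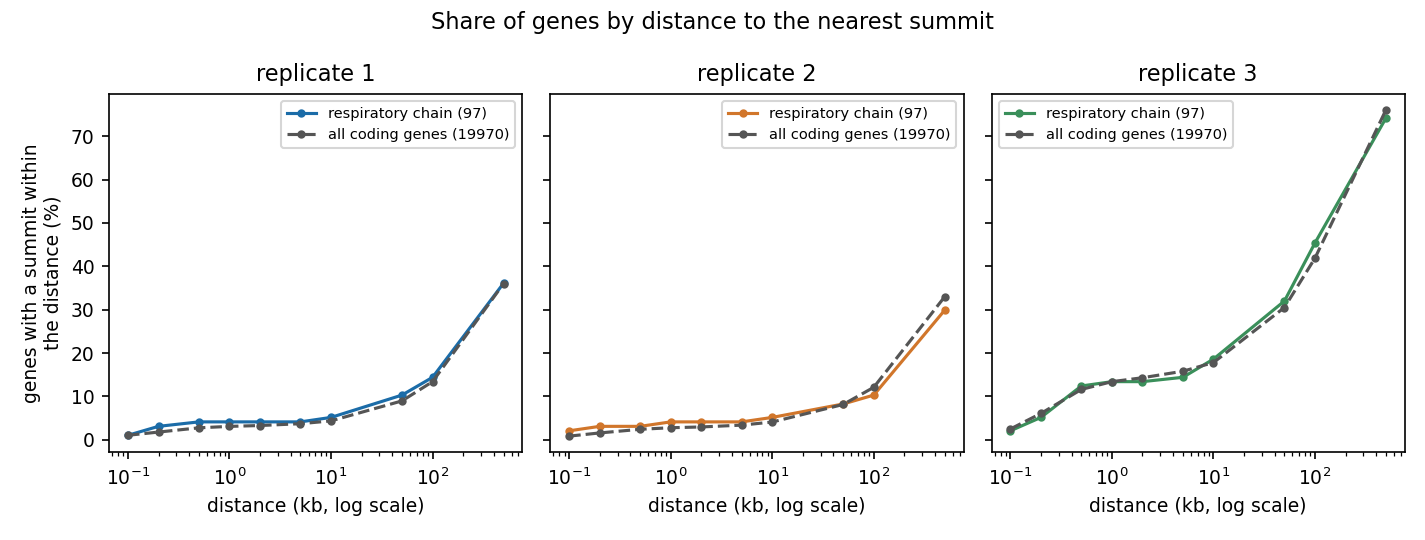
Share of genes (%) with a summit within a given distance of a gene end (kb, log axis), per library, for the 97 respiratory chain genes (solid) and all 19970 coding genes (dashed). The lines run close together, and at 500 kb the shares are 36.1 and 36.0% in replicate 1, 29.9 and 33.0% in replicate 2, and 74.2 and 76.1% in replicate 3.

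The complexes differed in count, and their intervals overlap. Complex I had 7 of 37 genes with a summit in any library (18.9%, interval 7.96 to 35.2%), complex II 1 of 4, complex III 1 of 10 and complex V 5 of 19 (26.3%, interval 9.15 to 51.2%). Complex IV had 0 of 17, for which a bound of 3 counts allows a share of up to 17.6% and the exact interval reaches 19.5%, so a share below the 15.1% of all genes was not detectable with so few genes. In at least 2 libraries the counts were 2 for complex I (5.41%), 1 for complex III (10%) and 2 for complex V (10.5%). They were 0 for complexes II and IV, and the share of all coding genes was 3.21%. Without replicate 3, complex I had 3 genes in any library (8.11%), complex V 2 (10.5%) and complex II 0. The share of all coding genes then fell from 15.1 to 4.78%. The 1 gene of complex III lies on chromosome 8, and without that chromosome its count was 0. Of the 8 NDUFAF assembly factors, 1 had a summit, and of the 2 read-through genes none did.

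**Figure D3:**
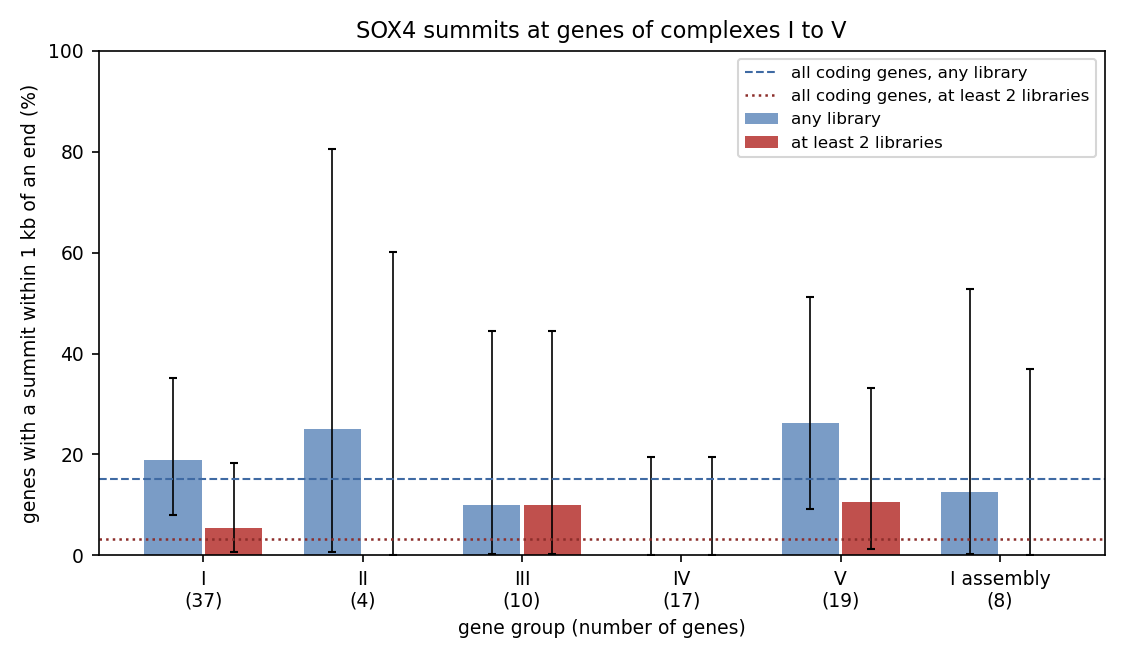
Share of genes (%) with a summit within 1 kb of a gene end, by complex and for the NDUFAF assembly factors (number of genes in brackets), in any library (blue) and in at least 2 libraries (red); error bars are exact 95% binomial intervals, and the horizontal lines give all coding genes, 15.1% (dashed) and 3.21% (dotted). Complex IV stands at 0 of 17, and every interval in any library spans the dashed line.

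Within complex I the summits fell on both core and accessory subunits. Of the 7 core subunits, which carry the flavin and the iron-sulfur clusters, 2 had a summit in 1 library each (28.6%, interval 3.67 to 71%). Of the 30 others 5 had one in any library (16.7%, interval 5.64 to 34.7%). The share of all coding genes was 15.1%, which both intervals span, so no difference between core and accessory subunits is shown. NDUFB9, an accessory subunit of the membrane arm (chromosome 8, 124539123 to 124549979), was the 1 member near which every library placed a summit. The summits lay at 124539263 in replicate 1 (score 3.91), 124539300 in replicate 2 (score 4.44) and 124539295 in replicate 3 (score 12.7). They were 140, 177 and 172 bp inside the gene and at most 37 bp from each other. The score of replicate 3 exceeded 96.0% of its list, while those of replicates 1 and 2 exceeded 11.8 and 22.9% of theirs. All 3 summits were also 175 to 212 bp from an end of TATDN1, the neighbouring coding gene.

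NDUFB6, another accessory subunit of the membrane arm (chromosome 9, 32553001 to 32573159, minus strand), had summits at both ends. Beyond its 3′ end, replicate 2 had one at 32552428 (score 4.86) and replicate 3 one at 32552432 (score 7.62), 4 bp apart. They lay 573 and 569 bp from the gene, and the first was 158 bp from an end of TOPORS. A second summit of replicate 3, at 32572834 (score 5.42), was 325 bp downstream of the transcription start. The position that both libraries share is thus at the 3′ end and nearer to another gene. In replicate 1 the nearest summit was 26.9 kb away.

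The core subunits NDUFV2 and NDUFS7, which each hold an iron-sulfur cluster, had summits in different libraries. For NDUFV2 the replicate 3 summit (chromosome 18, 9102678, score 7.69) was 21 bp upstream of the start, and the nearest of replicates 1 and 2 were 8990 and 3660 kb away. For NDUFS7 it was replicate 1 that gave a summit (chromosome 19, 1383541, score 5.34), 366 bp upstream, and the nearest of replicates 2 and 3 were 6060 and 586 kb away. The accessory subunits NDUFB4 and NDUFB3 and the mitochondrial acyl carrier protein NDUFAB1 had replicate 3 summits only. That of NDUFB4 scored 9.59, above 91.5% of the list, at 284 bp downstream of the start. The NDUFAB1 summit was 245 bp downstream (score 5.83), and the NDUFB3 summit 573 bp upstream (score 5.09), where it was 243 bp from an end of HYCC2. NDUFAF6, the assembly factor, had 3 replicate 3 summits within 1 kb, at 322, 440 and 692 bp with scores of 5.09, 4.66 and 4.62, and another 93.3 kb inside the gene.

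In complex II the 1 gene was SDHD, a membrane anchor of succinate dehydrogenase (chromosome 11, 112086873 to 112095794). Its replicate 3 summit at 112086624 (score 4.72) was 249 bp upstream of the start and 132 bp from an end of TIMM8B. The nearest summits of replicates 1 and 2 were 1680 and 216 kb away. The flavoprotein gene SDHA had the nearest summit of all members outside 1 kb, at 3.16 kb in replicate 3, but that summit lay inside PDCD6 and 263 bp from its end. For the iron-sulfur subunit SDHB the nearest summits were 123, 122 and 114 kb away in replicates 1 to 3, and for the anchor SDHC they were 91.5, 91.4 and 36.7 kb away.

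Complex III was represented by UQCRB, its ubiquinone-binding subunit (chromosome 8, 96222947 to 96235545). The replicate 2 summit at 96235549 (score 6.09) was 4 bp beyond the upper end of the gene, the smallest distance of any member. The replicate 3 summit at 96235326 (score 5.17) was 219 bp inside the same end, 223 bp from that of replicate 2. In replicate 1 the nearest was 26.0 kb away. CYC1, the cytochrome c1 gene, had its nearest summits at 28.4 kb in replicates 1 and 2, with scores of 30.0 and 58.4 at the same base, and at 12.7 kb in replicate 3.

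The complex IV genes had no summit within 10 kb. COX8C was nearest, at 14.3 kb in replicate 3, and that summit was 111 bp from an end of BTBD7. COX6A1 and COX6C followed at 28.8 and 33.6 kb, again in replicate 3. Among the 5 members farthest from any summit were COX7A2L at 4260 kb, COX7B at 1730 kb and COX4I1 at 1580 kb, together with NDUFAF5 at 1890 kb and NDUFA9 at 1770 kb.

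Complex V held the highest score among summits within 1 kb of a member. At ATP5PB, which encodes subunit b of the peripheral stalk (chromosome 1, 111449464 to 111462773), the replicate 1 summit scored 17.0, above 90.4% of its list, and the replicate 2 summit scored 8.83, above 81.3%. They lay at 111449384 and 111449445, 80 and 19 bp upstream of the start and 61 bp apart. Replicate 3, the longest list, had none nearer than 293 kb. The divergent gene WDR77 starts 208 bp from ATP5PB, and both summits were 128 to 189 bp from its end.

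ATP5F1C, the gamma subunit of the rotor (chromosome 10, 7788177 to 7807801), had summits of replicate 1 at 7787978 (score 6.79) and of replicate 3 at 7788397 (score 4.22). The first was 199 bp upstream and the second 220 bp downstream of the start, so they are 419 bp apart. The replicate 1 summit was 15 bp from an end of KIN, which starts 184 bp away on the other strand. In replicate 2 the nearest was 4240 kb away.

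The other 3 genes of complex V had summits in replicate 3 only, where the median score of the list was 5.58. ATP5PF, coupling factor 6 of the stalk, had one at chromosome 21, 25735474 (score 4.87), 179 bp inside the upper gene end. It was 420 bp upstream of the nearest listed start and 502 bp from an end of GABPA, which encodes the DNA-binding subunit of GABP and starts 68 bp from ATP5PF on the opposite strand. At ATP5F1E, the epsilon subunit, the summit was 42 bp downstream of the start with a score of 3.37, above 3.70% of the list, and another lay 207 bp outside the gene (score 5.59). ATP5IF1, the inhibitor of ATP hydrolysis, had its summit 150 bp downstream (score 4.62). Outside 1 kb of the gene ends, ATP5MC2 had a replicate 3 summit 123 bp downstream of an internal start (score 3.95), and ATP5MC3 had summits at 8.16 kb in replicate 1 and 8.29 kb in replicate 3, both inside ATF2. The nearest summits of NDUFA6 and NDUFAF3, at 5.78 and 5.82 kb, were 44 and 88 bp from ends of SMDT1 and IMPDH2.

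**Figure D4:**
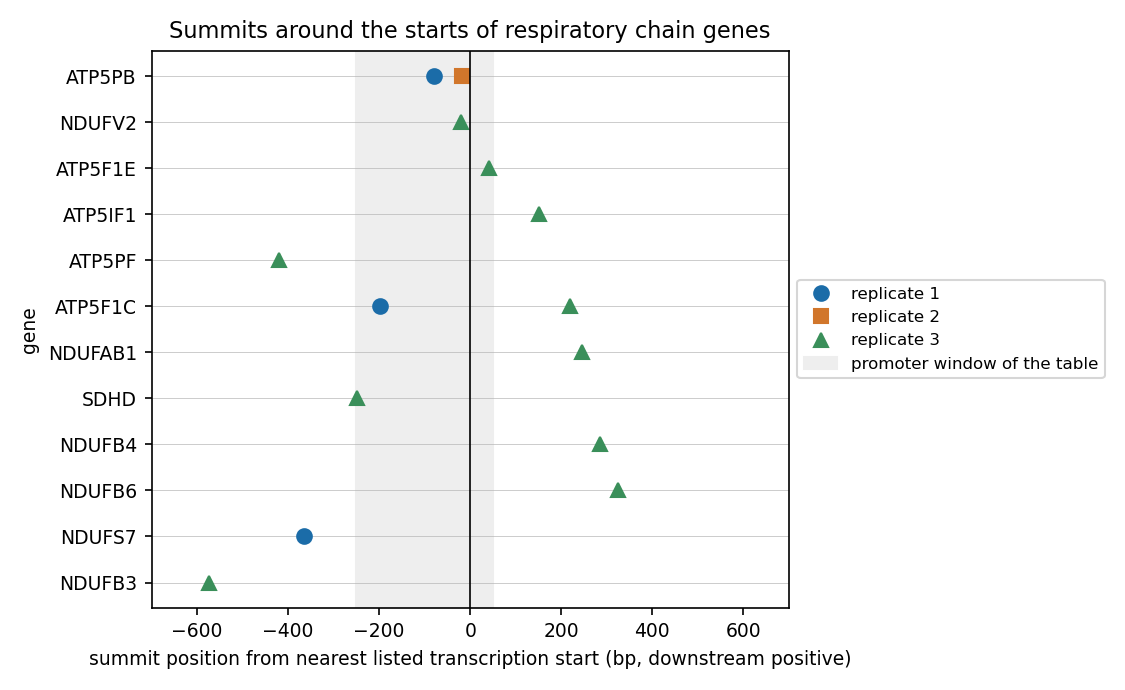
Position of summits from the nearest listed transcription start (bp, downstream positive) for the 12 respiratory chain genes with a summit within 1 kb and an entry in the promoter table; symbols stand for libraries and the grey band for the window whose sequence the table holds. Only the summit of each library nearest to a gene end is drawn, so further replicate 3 summits of ATP5F1E and NDUFB6 are left out. The drawn summits of ATP5PB, NDUFV2 and ATP5F1E lie within 80 bp of the start, and the others are 150 to 573 bp from it. The replicate 2 summit of NDUFB6, at its 3′ end, is outside the plot.

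The starts and neighbours of the members were then set beside those of all genes. Of 15 pairs of a gene and a library with a listed start, 14 had the summit within 1 kb of it, and 8 of these were upstream and 6 downstream (42.9% downstream, against 59.6% over all coding genes). Their median distance from the start was 232.5 bp, against 170 bp. For 9 of the 15 members (60.0%) a summit lay also within 1 kb of an end of another coding gene, against 33.3% of all genes with a summit, and for 4 members (26.7%) that other end was the nearer one in at least 1 library, against 16.6% of all genes with a summit. In these cases the data do not say which gene a summit belongs to. Head-to-head pairs were counted over the whole set. Of 78 members with a listed start, 29 (37.2%) had another coding gene starting within 1 kb on the opposite strand, against 13.6% of all genes with an entry. Of those 29, 3 had a summit (10.3%), namely ATP5PB, ATP5F1C and ATP5PF, while 27.2% of all head-to-head genes had one. Of the 49 members without such a partner, 9 had a summit (18.4%), against 13.6% of all genes without one. Genes absent from the promoter table could not count as partners. Among the 9, the SDHD and NDUFB3 summits lay upstream of the start, 132 and 243 bp from ends of TIMM8B and HYCC2. Whether these are head-to-head neighbours was not determined, so the order of 10.3 and 18.4% is uncertain.

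Scores of the members' nearest summits, where these lay within 1 kb, ranged from 3.91 to 17.0 in replicate 1, from 4.44 to 8.83 in replicate 2 and from 3.37 to 12.7 in replicate 3. Above the median of their list stood 2 of 4, 2 of 4 and 4 of 13 of them. By the distance between libraries, NDUFB9, ATP5PB and NDUFB6 were the 3 members where summits of different libraries, each within 1 kb of the gene, were at most 200 bp apart.

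The promoters of the members were searched for the letters of the known regulators, the SOX letters and CTCGCGAG, without a test. CTCGCGAG is not the string of any factor named above, and the reason for its choice is not recorded. NRF1 letters were in 15 of 78 (19.2%, against 4.26% of 15812 coding promoters of the same length), YY1 letters in 11 (14.1%, against 3.91%) and ETS letters in 21 (26.9%, against 14.2%). The SOX letters AACAAT were in 4 (5.13%, against 7.05%) and AACAAAG in 3 (3.85%, against 4.14%). Among the 12 members with a summit and an entry, NRF1 letters were in 5, YY1 letters in 3, ETS letters in 2 and each SOX string in 1. The first 3 shares were thus 41.7, 25 and 16.7%, against 15.2, 12.1 and 28.8% of the 66 members without a summit and 7.22, 6.0 and 22.3% of all genes with one. CTCGCGAG was in 2 of the 78 (2.56%, against 1.53%), ATP5PB and NDUFB6. Both had summits in 2 libraries, at the promoter in ATP5PB and at the 3′ end in NDUFB6. The median GC share was 60.8% in the 12 and 61.0% in the other 66 members.

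Genes around the chain were counted in the same way. Of 45 assembly factors outside the symbol rule, 13 had a summit in any library (28.9%, interval 16.4 to 44.3%) and 5 in at least 2. These 5 were COX20 in all 3 libraries (scores 4.24, 6.76 and 10.6), COX11, which works in copper delivery to complex IV, in replicates 1 and 2 (12.3 and 7.63), COA7 in replicates 2 and 3, and NUBPL and TTC19 in replicates 1 and 3. Of 15 genes of electron carriers and coenzyme Q synthesis, 8 had a summit (53.3%, interval 26.6 to 78.7%), with COQ2 and COQ9 in 2 libraries. Cytochrome c, CYCS, had a replicate 3 summit at 176 bp (score 6.34). The tricarboxylic acid cycle had 6 of 17 (35.3%, interval 14.2 to 61.7%), with FH, SUCLG2 and MDH2 in 2 libraries. MDH2, the malate dehydrogenase gene, scored 14.0 in replicate 1 and 9.81 in replicate 2. Regulators and factors of mitochondrial transcription had 5 of 17 (29.4%, interval 10.3 to 56.0%), namely TFAM, TFB1M, GABPA and GABPB1 in replicate 3 and the polymerase gene POLG in replicates 1 and 3. The GABPA summit is the same one that was counted for ATP5PF, to whose end it is nearer. Mitochondrial ribosomal proteins had 21 of 77 (27.3%) and cytosolic ribosomal proteins 30 of 77 (39.0%), each against the 15.1% of all coding genes. At least 2 libraries had summits at MRPL53, MRPS28, MRPL13 and MRPL57 of the first, and at RPS20, RPL7, RPS6, RPL41, RPS15A, RPL26 and RPS19 of the second. Such summits need not share a position. At RPL26 the replicate 1 summit (8383323) and the replicate 3 summit (8376703) lay near different gene ends. Counting at least 2 libraries, the shares were 11.1% for assembly factors, 13.3% for carriers and coenzyme Q, and 17.6% for the cycle. They were 5.88% for regulators, 5.19% for mitochondrial and 9.09% for cytosolic ribosomal proteins. The respiratory chain had 5.15% and all coding genes 3.21%.

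Without replicate 3 the counts in any library were 6 of 45 for the assembly factors, 3 of 15 for carriers and coenzyme Q, 4 of 17 for the cycle, 1 of 17 for the regulators, 7 of 77 for mitochondrial and 11 of 77 for cytosolic ribosomal proteins, against 4.78% of all coding genes. The respiratory chain, at 15.5% with all libraries, had the lowest share of these 7 lists. That order was not the same in every setting. Without replicate 3 the regulators (1 of 17, 5.88%) were below the chain (6.19%), and the other lists had 9.09 to 23.5%. In replicate 1 alone the chain was again lowest, with 4.12% against 5.88 to 23.5% of the other lists. In replicate 2 the regulators (0 of 17) and the mitochondrial ribosomal proteins (3.9%) were also below the 4.12% of the chain. The difference between lists was not tested.

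**Figure D5:**
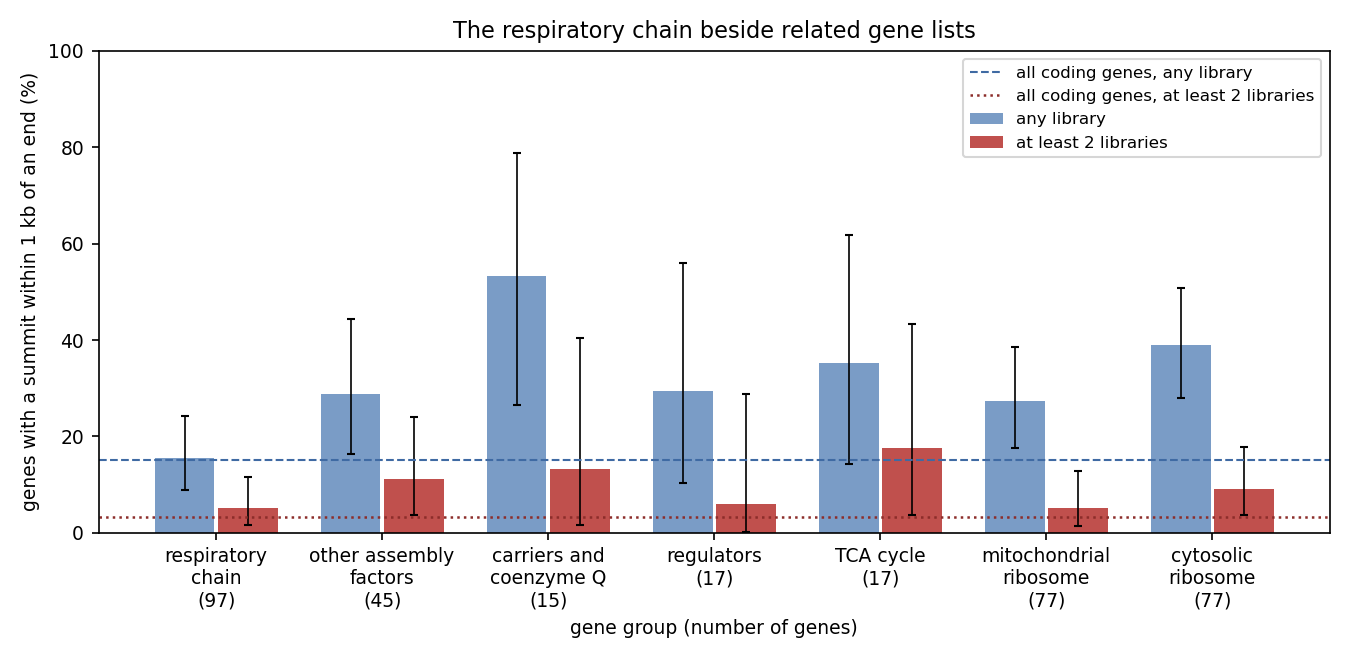
Share of genes (%) with a summit within 1 kb of a gene end, for the respiratory chain and 6 related lists (number of genes in brackets), in any library (blue) and in at least 2 (red), with exact 95% binomial intervals and the shares of all coding genes as lines at 15.1% (dashed) and 3.21% (dotted). The respiratory chain stands at the dashed line with 15.5%, and the other lists lie between 27.3 and 53.3%.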

How the data were processed

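SOX4 ChIP-seq was deposited as 1 list of summits per library. The tools named, per the submitters' processing notes, are MACS2, BWA and SAMtools. Their versions are not given in the sources used here. The build named there is hg19, but contig names and positions are those of GRCh38. The deposited score is on the −log10 scale of either p or q values, and which of them is not given in the sources used here. Read depth is unknown.

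Genes and promoters came from RefSeq tables of GRCh38.p14, of which 78 of the 97 members had a promoter entry. For each gene the nearest summit to either gene end was found, and a distance of at most 1000 bp counted. Positions are 1-based. Transcription starts were read from the promoter table, taking the nearest where a gene had several, and motifs were searched in the first listed promoter. All members with a summit in any library were named, with the 5 nearest and 5 farthest of the rest, the SDH genes and CYC1. Genes of the related lists were named where at least 2 libraries had a summit, and COX8C, COX6A1, COX6C, CYCS, TFAM, TFB1M, GABPA and GABPB1 were named after their values were seen. The members and lists were chosen with earlier results of these data known, and the source of the string CTCGCGAG is not recorded. The search was checked against direct calculation on planted summits. Python 3.11.15, numpy 2.4.6 and pandas 2.3.3 were used. Alternatives changed the distance, the gene end, the score minimum, the libraries and the genes; leaving libraries out of the related lists was added after the data were seen.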

Additional observations from a re-analysis of the deposited data

Results flagged for a closer look

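The 13 protein-coding genes of the mitochondrial genome, which encode the remaining subunits of complexes I, III, IV and V, lie outside the nuclear comparisons. Replicates 1, 2 and 3 had 10, 10 and 11 summits on that genome, and they are listed because no comparison uses them. In each library 7 of them fell inside protein-coding genes, 1 each in ND1, COX1, COX2, COX3, ND4, ND5 and CYTB, and ND2, ND3, ND4L, ND6, ATP6 and ATP8 had none. Scores ranged from 8.40 to 58.0, from 16.1 to 75.7 and from 12.8 to 68.6 in the 3 libraries, and the highest was in CYTB each time. No control library was analysed here, so the level of these summits in a control was not tested.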

How the results depend on the processing

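Of 61 alternatives to 10 counts, 41 stayed within 1.5 times the count as reported and 20 did not, 1 of them upward. Leaving out libraries, summits or genes, or taking a shorter distance, can only keep or lower a count. The direction of the changes was thus largely set in advance. With summits at or above the median score of their list, 9 members had one in any library (9.28%, all coding genes 7.79%), 1 in at least 2 (1.03%, against 1.28%), and 2, 2 and 6 in replicates 1, 2 and 3 (2.06, 2.06 and 6.19%, against 1.32, 1.22 and 6.78%). With the top 1000 summits the counts were 8 in any library (8.25%, against 5.15%), 1 in at least 2 (1.03%, against 1.2%), 2 in replicate 2 (2.06%, against 1.34%) and 4 in replicate 3 (4.12%, against 3.05%). Leaving out 1 library gave 6 to 15 members in any library and 2 to 3 in at least 2. For complexes I, II and V it gave 3 to 7, 0 to 1 and 2 to 5. The share of all coding genes was then 4.78 to 14.5% in any library and 1.07 to 1.96% in at least 2. Counting only transcription starts left 2 of 78 members in at least 2 libraries (2.56%, against 3.21%). Without chromosome 8, 3 members remained in at least 2 libraries and complex III had 0. Within 5 kb complex II had 2. Complex IV had 0 under each alternative run, but leaving out a library or chromosome 8 could not raise a count of 0. Its nearest summit, at 14.3 kb, also lay beyond the 5 kb tried, so these alternatives could not change its count. Moving NDUFA4 to complex IV was not run, as that gene was not analysed here. No paired analysis was possible because there is 1 group. Read depth is unknown, and lists of 1368 to 4430 summits limit what could be seen at 97 genes.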

Other observations

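The string CTCGCGAG, found at ATP5PB and NDUFB6, went with summits across all genes. Of 242 coding promoters that hold it, 128 belonged to genes with a summit within 1 kb in any library (52.9%, exact 95% binomial interval 46.4 to 59.3%) and 69 in at least 2 libraries (28.5%, 22.9 to 34.6%), against 15.5 and 2.99% of all 15812 promoters. By library the shares were 35.5, 26.4 and 32.2%, against 3.0, 2.56 and 13.6%. For the NRF1 letters the share in any library was 26.3%, for ETS 24.4%, for YY1 23.8%, for AACAAT 10.3% and for AACAAAG 13.6%. These shares are descriptions, and GC content, CpG number and neighbouring genes were not accounted for. The reason for choosing CTCGCGAG is not recorded, and earlier results of these data were known when the searches were planned. Its shares therefore give no independent support.

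The libraries placed their summits differently around this string. Where a summit was within 1 kb of a match, the shares of matches with it within 100 bp were 80.2, 79.7 and 22.6% for replicates 1, 2 and 3, and the median distances were 35, 41 and 190 bp. Distances to gene ends also differed between libraries over all coding genes. A summit within 1 kb of an end was within 100 bp for 206 of 615 genes in replicate 1. In replicates 2 and 3 this held for 167 of 553 and 495 of 2667 genes. How much of the difference is particular to the string was not tested. Of 36 promoters of genes with summits in replicates 1 and 2 but not 3, 19 held the string (52.8%), against 28 of 1719 with replicate 3 alone (1.63%) and 31 of 112 with all 3 (27.7%). ATP5PB, COQ9 and MDH2 are among the 19. At NDUFB6 the summits shared by replicates 2 and 3 lie at the other end of the gene from the string. The cause was not tested.

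Pseudogenes of the respiratory chain families had summits about as rarely as all pseudogenes. Of 200, 3 had one within 1 kb in any library (1.5%), against 1.39% of 16664 pseudogenes, and all 3 were in replicate 3: SDHAP1, SDHAP2 and ATP5F1AP8.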
